A study of Homo sapiens with 33 samples.

Results

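The regions described here are the wild-type MITF regions that lie deep inside genes. They were chosen from the deposited peaks of the wild-type libraries: an interval was taken where peaks with a −log10 q of at least 5 overlapped in at least 2 of the 3 WT lists, on chromosomes 1 to 22 and X. It was kept where its midpoint lay inside a RefSeq protein-coding gene and more than 5000 bp from every protein-coding gene end. This gave 23363 deep regions of 64917 WT regions in all (35.99%). Another 19500 regions lay within 5000 bp of a gene end (30.04%), and 22054 lay outside genes and farther from any gene end. Below, a strong peak is one with a −log10 q of at least 5, and a listed peak is any peak of a list.

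MITF was profiled by CUT&Tag, in which an antibody brings a transposase to its target so that the DNA around it is cut and tagged. The cells were UACC-257, an established human melanoma line, and the antibody was against HA, so the protein seen is the HA-tagged one. The series held 33 libraries in 11 groups of 3, made from 400000 cells each. There were 9 MITF variants: G244E with K243A, Y253A, E260A with Q261A, A264C, N278D, and those named rep217A and rep263A. The other groups were Empty and WT. Every group, Empty and WT included, was labelled as MITF knockdown and as treated with doxycycline. What the names rep217A and rep263A stand for, what drives the HA-tagged protein and whether lines were clonal are not given in the sources used here. Nothing in the labels tells whether the replicates came from different cultures. The p-values therefore measure only the spread between these libraries, which may be technical.

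In rep217A and also in rep263A, replicates 2 and 3 had the same list, so they entered once and n = 2 in both groups (31 distinct libraries in the series). Depth differed widely. The relative depth of a library, taken as the commonest background pileup recovered from its deposited values, was 0.697 to 1.49 in A264C, E260A, N278D, Q261A and Y253A. It was 0.427 and 0.487 in rep263A, 0.276 and 0.348 in rep217A, 0.132 to 0.244 in K243A and 0.108 to 0.151 in G244E, against 1.082 to 1.201 in WT. In Empty it was at most 0.03. A region without a peak in G244E, K243A, rep217A or Empty may therefore have been undetectable at that depth. Each comparison below was repeated after thinning every library except those of Empty to the depth of the shallowest, 0.108 (the common depth).

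MITF is a basic helix-loop-helix leucine zipper factor that binds DNA as a dimer at E-boxes and directs pigment cell identity, melanosome genes, survival and lysosome genes. Many sites of such factors lie not at promoters but inside genes, in enhancers or at internal start sites, from where they can act on the host gene or on a neighbour. A gene span in RefSeq covers all transcripts of the gene, so an internal promoter, such as the one from which melanocytes transcribe the M form of MITF, counts as deep here.

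Sequences of the regions themselves were not read, but 274 deep regions (1.17%) overlapped the start of a noncoding gene that lies inside a protein-coding gene, and for these the start window is known. The RefSeq windows (GRCh38.p14, 250 bases before to 50 after the start) numbered 290. The letters CACGTG stood in 28 of them, on either strand (9.66%), against 5.41% of the 12830 noncoding windows and 7.27% of all 34961 windows. The other E-box known for MITF, CATGTG (read as CACATG from the opposite strand), stood in 47 (16.2%), against 14.8% of noncoding and 11.1% of all windows. For CAGCTG, an E-box form known from other helix-loop-helix factors, the count was 59 (20.3%), against 17.8% of noncoding and 18.0% of all windows. The WT summit fell inside the window in 174 cases. Of these, 20 held CACGTG (11.5%), 10 of them with its centre within 50 bp of the summit. CATGTG was held by 25, with 12 within 50 bp, and CAGCTG by 41, with 12 within 50 bp. Both strands were searched, matches of different motifs may share letters, and a match is a description of the letters only.

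The windows below are the strongest 4 with the WT summit inside and either MITF E-box, followed by the window in TFAP2A, whose deep region is described further on and which holds neither. Capitals mark those E-boxes on either strand. The first lies in TIMP2 at chr17:78861975-78862274 on the plus strand, with CACGTG 69.5 bp from the summit. The second lies in SLCO4A1 at chr20:62666572-62666871 on the minus strand, with CACGTG 59.5 bp from the summit. The third lies in LARP1 at chr5:154754971-154755270 on the minus strand, with CACGTG 50.5 bp from the summit and a further E-box, CACATG, at 170.5 bp. The fourth lies in NT5DC3 at chr12:103802444-103802743 on the plus strand, with CACATG 54.5 bp from the summit. The last lies in TFAP2A at chr6:10404252-10404551 on the plus strand.
LOC124904068: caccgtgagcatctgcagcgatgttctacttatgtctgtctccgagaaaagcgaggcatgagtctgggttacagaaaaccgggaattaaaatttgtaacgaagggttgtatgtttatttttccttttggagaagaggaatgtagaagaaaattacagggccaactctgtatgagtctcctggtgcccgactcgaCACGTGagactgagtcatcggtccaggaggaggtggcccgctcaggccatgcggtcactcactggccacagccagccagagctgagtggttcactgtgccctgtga
SLCO4A1-AS1: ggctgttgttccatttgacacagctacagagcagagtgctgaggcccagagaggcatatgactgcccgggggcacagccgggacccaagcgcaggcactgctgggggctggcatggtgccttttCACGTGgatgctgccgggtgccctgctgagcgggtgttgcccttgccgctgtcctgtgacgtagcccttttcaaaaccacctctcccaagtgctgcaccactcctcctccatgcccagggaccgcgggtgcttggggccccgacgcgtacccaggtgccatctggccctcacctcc
LOC112267936: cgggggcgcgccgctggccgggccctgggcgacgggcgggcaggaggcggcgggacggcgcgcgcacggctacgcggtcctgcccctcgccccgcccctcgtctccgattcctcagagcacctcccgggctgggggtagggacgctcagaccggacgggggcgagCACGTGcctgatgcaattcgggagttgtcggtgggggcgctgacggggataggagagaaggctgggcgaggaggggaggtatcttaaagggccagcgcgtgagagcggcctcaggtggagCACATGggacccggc
LOC124903000: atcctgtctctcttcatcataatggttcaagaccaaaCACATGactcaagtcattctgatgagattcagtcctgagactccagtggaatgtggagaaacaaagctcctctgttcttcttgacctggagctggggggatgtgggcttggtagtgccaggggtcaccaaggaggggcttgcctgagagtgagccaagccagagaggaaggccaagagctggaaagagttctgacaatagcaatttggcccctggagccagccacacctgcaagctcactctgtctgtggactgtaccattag
TFAP2A-AS2: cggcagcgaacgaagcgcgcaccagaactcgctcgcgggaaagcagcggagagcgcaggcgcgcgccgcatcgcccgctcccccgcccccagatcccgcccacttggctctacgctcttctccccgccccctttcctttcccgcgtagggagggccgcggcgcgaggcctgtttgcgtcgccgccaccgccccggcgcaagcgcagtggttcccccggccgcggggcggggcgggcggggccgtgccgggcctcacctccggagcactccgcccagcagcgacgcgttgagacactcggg

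All 5 of these regions had a strong peak in every library of all 9 variants and of WT. They differed in Empty: the SLCO4A1 region was strong in all 3 Empty libraries, the NT5DC3 region in 1, and the other regions in none. Hairpins of 21 of 1562 miRNA genes in the reference also overlapped deep regions, the strongest being MIR6132 in ST7, with a mean WT rank of 633.7.

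The deep regions were narrower and weaker in WT than those at gene ends. Their median width was 443 bp (quartiles 310 and 609), against 601 bp at gene ends. Their median −log10 q, averaged over the WT libraries, was 18.4, against 31.9 at gene ends and 17.9 outside genes. The summit stood a median of 24.9 times above the library background, against 45.8 times at gene ends. Strong peaks in all 3 WT lists were found for 18266 of them (78.2%), against 85.2% at gene ends. These values chose the regions and carry no test. At the edge of the rule, the second highest WT −log10 q was 5.001 at the lowest region inside and 4.998 at the highest interval outside, with 1518 deep regions below 5.5, and 950 intervals outside at 4.5 or more. The nearest deep region lay 5001 bp from a gene end, and the farthest gene-end region 4999 bp.

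Deep regions were spread thinly over long genes. Their median distance to a gene end was 35133 bp, with quartiles 15321 and 80081.5 bp and a maximum of 1143566 bp. The density was 26.0 regions per Mb of gene interior at 5000 to 10000 bp from an end and 22.2 per Mb at 50000 to 100000 bp. Beyond 200000 bp it was 11.4 per Mb, against 21.6 per Mb overall. The median gap to the next deep region was 21.6 kb, and 21.0% lay within 5 kb of another. Of 14145 genes with a deep interior, 6602 held at least 1 region (46.7%), and 401 regions lay in more than 1 gene.

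The genes with most deep regions were MACROD2, a mono-ADP-ribosyl hydrolase gene spanning a common fragile site, with 53, DLGAP1, a postsynaptic scaffold gene, with 44, KAZN, encoding a cell junction protein, with 41, JARID2, a component of the Polycomb complex that methylates histone H3, with 40, and NCKAP5 with 39. Per length the order was different. Among 1274 genes with at least 200000 bp of deep interior, the median was 1.56 regions per 100 kb and 118 genes held none. JARID2 held 15.0 per 100 kb, SEPTIN9, a cytoskeletal septin gene, 14.3, SPTBN1, encoding beta-spectrin, 13.2, MITF itself 12.3, and IGF1R, the receptor of insulin-like growth factor, 10.8. In JARID2, 8 of 40 regions were strong in every G244E library, 10 in every K243A library, 19 in every rep217A library and 36 in every N278D library, against 35 in every WT library. In MACROD2 the counts of 53 were 1 in G244E, 7 in K243A, 16 in rep217A and 47 in N278D, against 42 in WT. In MITF the counts of 27 were 4 in G244E, 6 in K243A, 9 in rep217A and 22 in N278D, against 24 in WT. Over all deep regions the share was 12.3% in G244E, 18.3% in K243A, 29.3% in rep217A and 84.7% in N278D, against 78.2% in WT. Whether regions in MITF come in part from an introduced MITF sequence was not tested.

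Recovery asked how many deep regions each variant still marked with a strong peak. To keep the choice of regions apart from the test, regions were made again from each pair of WT lists, each WT library was scored on regions made without it, and the other libraries on the mean of the 3 region sets. G244E libraries recovered 27.4%, 20.8% and 30.6% of deep regions, K243A libraries 31.0%, 34.0% and 40.1%, and rep217A libraries 40.7% and 43.1%, against 94.2%, 90.4% and 90.4% in WT. These groups lay far below WT with no overlap. The rep263A libraries recovered 79.5% and 83.4%, also below every WT library. Empty libraries recovered 1.07%, 0.681% and 0.414%. The remaining 5 variants lay nearer to WT: A264C averaged 94.6 ± 1.8%, N278D 94.4 ± 0.59%, Y253A 92.1 ± 1.2%, Q261A 88.5 ± 1.7% and E260A 88.4 ± 0.086%, against 91.7 ± 2.2% in WT (SD, n = 3 each). All E260A and Q261A libraries were below every WT library, while A264C, N278D and Y253A overlapped with WT. For these 5 the permutation adjusted p was 0.534 to 1. The test scales every difference by a within-group SD pooled over all groups, with G244E (SD 5.0) and K243A (SD 4.7) among them. Outside genes the pattern was close to that deep inside them, with 26.1%, 19.6% and 29.2% in G244E, against 94.3%, 90.4% and 89.9% in WT.

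A two-sided permutation test over the 31 libraries, adjusted over the 10 comparisons with WT, called G244E (−65.4 percentage points), K243A (−56.6), rep217A (−49.8) and Empty (−90.9), all at adjusted p = 1e-05, which is the lowest value this number of permutations allows. It also called rep263A (−10.2, adjusted p = 0.00175 in the permutation test), a call lost without replicate 1 (−7.05, permutation adjusted p = 0.368) and with all listed peaks (−3.18, 0.577). At the common depth, G244E recovered 21.6 ± 0.83% and K243A 22.6 ± 2.9%, against 24.3 ± 1.6% in WT (SD, n = 3 each), and neither was called (permutation adjusted p = 0.546 and 0.905). The rep217A libraries stayed lower at 18.0 ± 1.2% (n = 2). N278D (37.8%), Q261A (35.5%), rep263A (34.7%), Y253A (34.1%) and E260A (30.5%) lay above WT at that depth, and each was called. For E260A, Q261A and rep263A this is the opposite direction from the comparison at own depth.

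**Figure D1:**
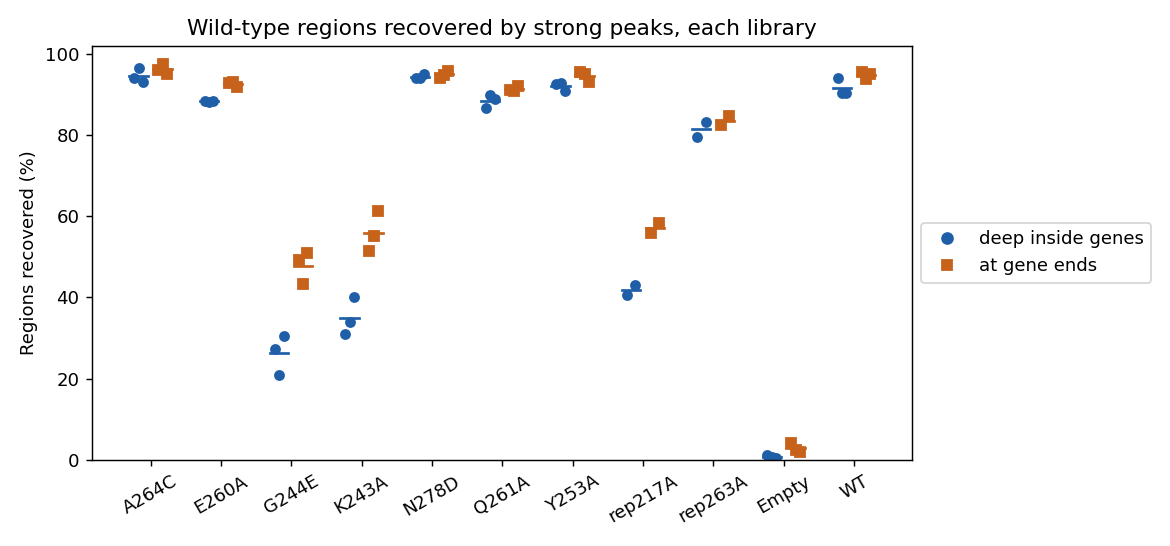
Percent of wild-type regions overlapped by a strong peak, for regions deep inside genes (circles) and at gene ends (squares), with 1 point per distinct library and a bar at the group mean. In G244E, K243A and rep217A both classes fall below WT and the deep class lies lower than the gene-end class, at 26.3% against 47.8% in G244E.

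Counted region by region, 2878 of 23363 deep regions were strong in every G244E library (12.3%, against 18.1% of all WT regions), 4271 in every K243A library (18.3% against 24.5%) and 6854 in every rep217A library (29.3% against 33.8%). The counts were 15521 in rep263A (66.4% against 68.2%), 17232 in Q261A (73.8% against 75.6%), 17696 in E260A (75.7% against 78.7%), 19017 in Y253A (81.4% against 82.8%), 19347 in A264C (82.8% against 84.2%) and 19793 in N278D (84.7% against 85.5%). In WT, whose lists chose the regions, the count was 18266 (78.2% against 80.2%). The deep share was below the share of all regions in each of these groups. In Empty, 18 deep regions were strong in every library (0.0770% against 0.194%), 23006 had no strong peak in any (98.5% against 97.1%), and 11238 had no listed peak in any Empty library (48.1% against 42.7%).

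Across groups, 2169 deep regions were strong in every library of all 9 variants (9.28% against 14.6% of all regions). A larger set of 14885 was strong in every library of A264C, E260A, N278D, Q261A and Y253A (63.7% against 66.8%), and 3582 of these had no strong peak in any G244E, K243A or rep217A library (15.3% against 13.1%). Only 96 deep regions were strong in no variant library (0.411% against 0.382%), and 112 were strong in every library of all 9 variants with no listed peak in any Empty library (0.479% against 0.424%).

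Recovery was lower for weaker regions, and deep regions were weaker than gene-end regions, so the classes were also compared within quintiles of WT strength. In quintile 4, G244E libraries recovered 38.8 ± 8.3% of deep regions and 60.8 ± 6.2% of gene-end regions, K243A libraries 56.4 ± 9.0% and 73.9 ± 6.8% (SD, n = 3 each), and rep217A libraries 61.3 ± 1.8% and 73.1 ± 2.2% (n = 2). In the same quintile, N278D libraries recovered 99.5% deep and 98.7% at gene ends, and WT libraries 99.7% and 99.2%. Recovery so near to complete leaves N278D and WT little room for a difference between the classes at own depth. In quintile 5, the strongest regions, G244E still recovered 71.6 ± 6.3% deep against 89.7 ± 2.7% at gene ends.

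Averaged over the quintiles, deep recovery minus gene-end recovery was −11.5, −12.5 and −9.89 percentage points in the G244E libraries, −8.99, −9.85 and −9.89 in K243A and −5.18 and −5.28 in rep217A, against 0.488, −0.528 and −2.12 in WT. It was positive in rep263A, at 3.51 and 4.00. The groups did not overlap with WT in any of these 4 variants. The permutation test called G244E (−10.6 relative to WT, adjusted p = 1e-05), K243A (−8.86, 1e-05), rep217A (−4.51, 0.00041) and rep263A (+4.47, 0.00045). Without replicate 1 the rep217A call was lost (−3.95, permutation adjusted p = 0.0685), as it was with a −log10 q of at least 10 (−2.74, 0.204). The rep263A call was lost with all listed peaks (1.52, permutation adjusted p = 0.652) and without quintiles (0.948, 0.844). N278D libraries gave 1.88, 1.03 and 0.978, above all WT libraries, with a permutation adjusted p of 0.0908. For A264C, E260A, Q261A, Y253A and Empty the adjusted p was 0.386 to 0.988 in the same permutation test. Empty recovered only 0.722% of deep and 2.89% of gene-end regions, which leaves little room for a difference. With all listed peaks Empty stood at −15.0 relative to WT (permutation adjusted p = 1e-05).

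At the common depth the difference within quintiles was −10.9 ± 1.6 percentage points in G244E and −8.53 ± 0.74 in K243A, against −1.70 ± 1.7 in WT (SD, n = 3 each). Relative to WT this was −9.16 and −6.83, smaller than the −10.6 and −8.86 at own depth. Both stayed called (permutation adjusted p = 1e-05 and 0.00013). The G244E and K243A libraries were already shallow, so thinning lowered their depth far less than that of WT and left their own values less room to change. The rep217A value was −2.68 ± 0.83 (n = 2), and its call was lost (permutation adjusted p = 0.974). N278D (4.39), Y253A (3.09) and Q261A (3.08) then stood above WT and were called, with permutation adjusted p of 0.00048, 0.00462 and 0.00472, and rep263A (3.46) stayed called. For G244E and K243A, recovery of the deep class at the common depth (21.6% and 22.6%, against 24.3% in WT) did not pass the test. Recovery at gene ends was 42.5% and 41.9%, against 37.2% in WT, and was not tested. The lowest K243A library, at 37.4%, lay within the WT range there. The difference between the classes at that depth is therefore not a measure of lower deep recovery alone.

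**Figure D2:**
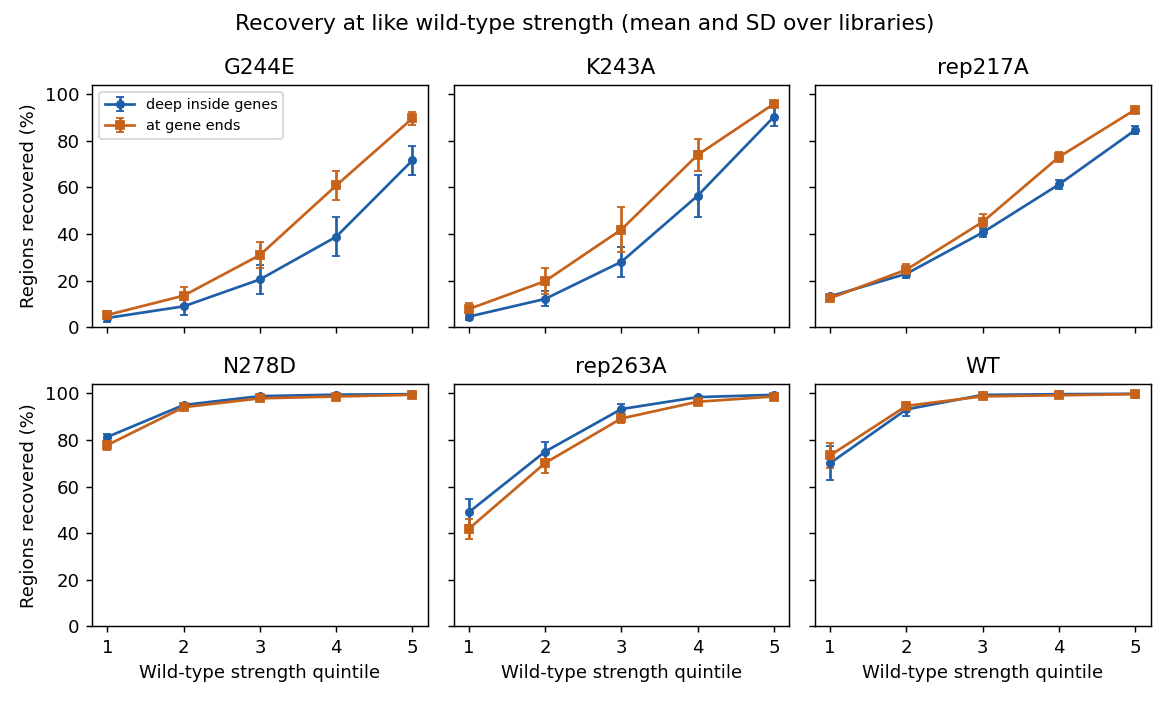
Percent of regions recovered by strong peaks against quintile of wild-type strength (5 is the strongest), for deep (circles) and gene-end (squares) regions, as means with SD over the libraries of 6 groups. The deep curve runs below the gene-end curve in G244E and K243A at every quintile, in rep217A from quintile 2 on, and above it in rep263A.

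**Figure D3:**
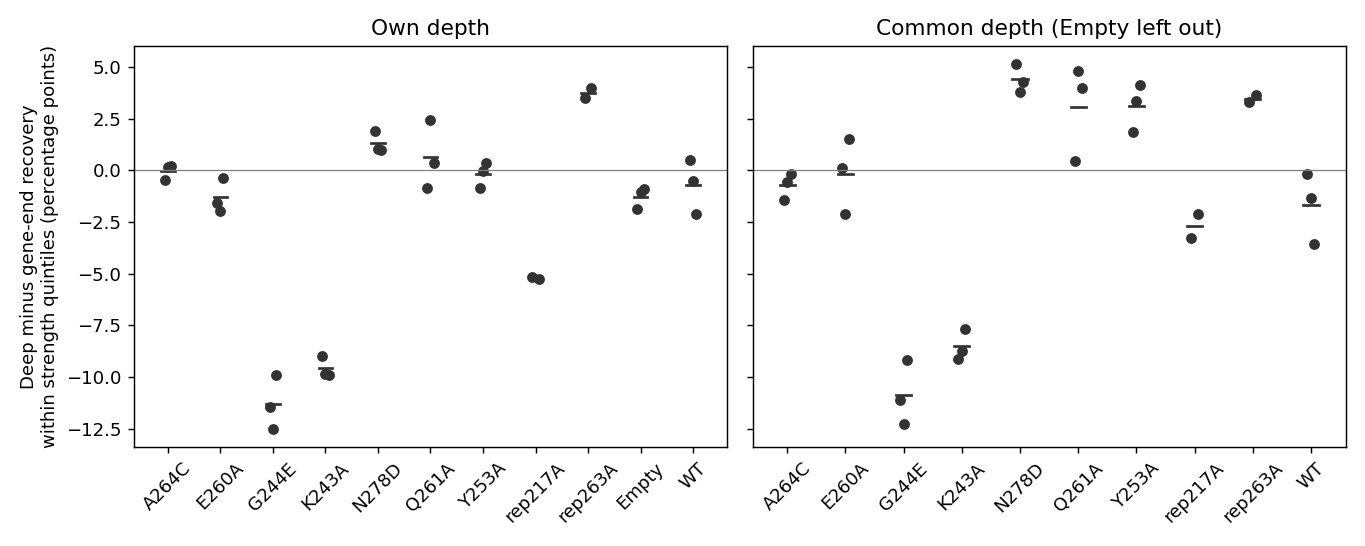
Deep minus gene-end recovery within strength quintiles, in percentage points, at each library's own depth (left) and after thinning to the common depth without Empty (right), with 1 point per distinct library and a bar at the group mean. The G244E and K243A libraries lie between −12.5 and −7.70 in both panels, below all WT libraries.

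Summit height can be given only for regions with a listed peak in every library other than those of Empty, 7425 deep and 10742 at gene ends. This filter keeps regions where the shallow libraries are high, so the values describe that subset, carry no test and are no further support for the differences above. The summit over library background was set against its WT mean. The median log2 difference of deep regions was 0.16, 0.08 and 0.13 in the G244E libraries, while at gene ends it was 0.54, 0.52 and 0.40. In K243A it was 0.21, 0.17 and −0.04 deep and 0.52, 0.47 and 0.21 at gene ends. In N278D the order was turned, with 0.48, 0.40 and 0.30 deep and 0.22, 0.19 and 0.03 at gene ends. Deep minus gene end, the shift was −0.43 to −0.27 in G244E, −0.32 to −0.25 in K243A, 0.01 and 0.03 in rep217A, 0.17 and 0.19 in rep263A and 0.21 to 0.27 in N278D, against −0.05 to 0.04 in WT. In rep217A both classes fell short of WT alike, at −0.21 and −0.35 deep.

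Which share of each library's own strongest peaks fell deep inside genes was also asked, since this uses no region chosen from WT. Of the 10000 peaks of highest −log10 q, the share with a deep summit was 21.5%, 21.5% and 22.7% in G244E and 23.02%, 23.5% and 23.7% in K243A, against 28.1%, 27.4% and 26.7% in WT. It was higher in N278D at 32.95%, 32.03% and 32.89%, in Y253A at 31.3%, 32.3% and 32.5%, in Q261A at 29.7%, 31.5% and 31.7%, and in rep263A at 30.4% and 30.8%. None of these libraries overlapped with WT. The permutation test called G244E (−5.53 percentage points, adjusted p = 2e-05), N278D (+5.21, 4e-05), Y253A (+4.60, 0.00011), K243A (−4.04, 0.00058), Q261A (+3.58, 0.00241), rep263A (+3.18, 0.0175) and Empty (+2.83, 0.0182). The Empty libraries gave 27.6%, 30.9% and 32.3%, overlapping with WT, and this difference turned round with 5000 strongest peaks (−2.43). Only 1310, 769 and 563 peaks of the Empty libraries were strong, so most of their 10000 or 5000 were not. The weakest of the 10000 had −log10 q of 1.87, 1.75 and 1.63 in Empty, against 92.1 to 100.2 in WT. E260A averaged 29.7 ± 1.0%, against 27.4 ± 0.70% in WT (SD, n = 3 each), with a permutation adjusted p of 0.0750. A264C averaged 27.7 ± 0.41% (SD, n = 3) and rep217A 28.4 ± 0.22% (SD, n = 2). All E260A and rep217A libraries were above all WT libraries. With peaks ranked by fold, rep217A lay below WT and was called (−3.70, permutation adjusted p = 0.00016), Empty also lay below WT (−6.68, 1e-05), and the rep263A call was lost (0.987, 0.639). Without replicate 2 the calls of K243A (−4.08, permutation adjusted p = 0.0816), Y253A (4.45, 0.0547), Q261A (3.30, 0.182), rep263A (2.95, 0.445) and Empty (2.52, 0.404) were lost. Without replicate 3 those of Q261A (2.87, permutation adjusted p = 0.0686), rep263A (2.83, 0.0728) and Empty (1.48) were lost.

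**Figure D4:**
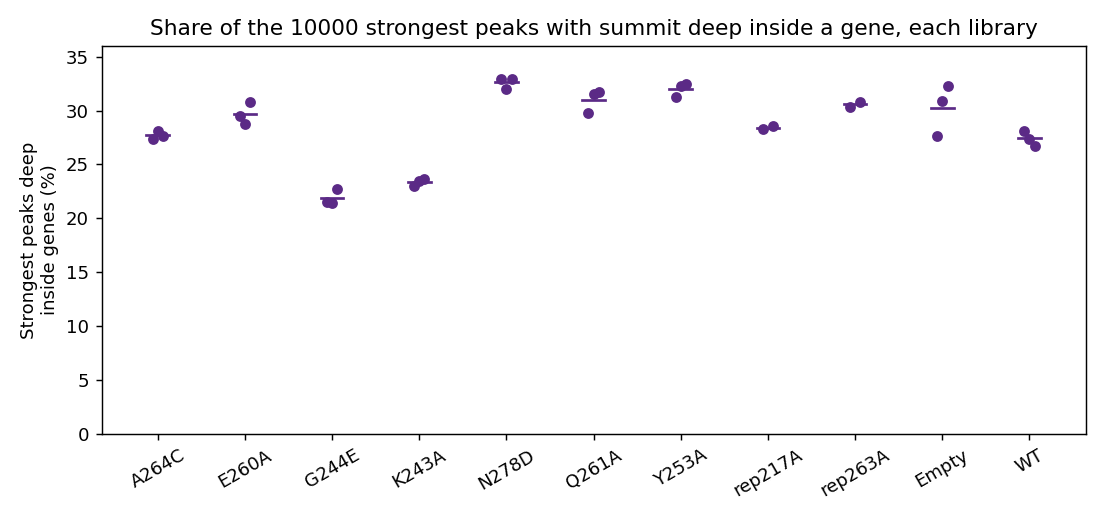
Percent of each library's 10000 strongest peaks whose summit lies deep inside a protein-coding gene, with 1 point per distinct library and a bar at the group mean, on an axis from 0. G244E and K243A lie at 21.5% to 23.7%, below the WT libraries at 26.7% to 28.1%, and N278D at 32.03% to 32.95%, above them.

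The distance from the gene end went with recovery in some groups. In G244E, 25.4% of deep regions at 5000 to 10000 bp from an end were strong, as a mean over libraries, and 19.3% beyond 200000 bp. In K243A these shares were 32.4% and 26.9%, in rep217A 38.6% and 34.3%, in rep263A 73.8% and 77.3%, and in N278D 90.2% and 91.7%, against 92.9% and 92.4% in WT. The median WT −log10 q was 18.9 in the nearest bin and 18.1 in the farthest. These are descriptions of the bins, with no test. Near the start of genes (5000 to 20000 bp) there were 1817 regions and near the other end 1515, in genes of at least 50000 bp whose strand is known.

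Summit positions were compared where a strong peak overlapped the deep region. For a library of another group the WT summit was the median over all WT libraries. For a WT library it was the median over the remaining WT libraries, so the references are not alike. In A264C, E260A, N278D, Q261A, Y253A and rep263A, the summit of the strong peak lay a median of 12 to 16 bp from the WT summit of the deep region, against 14 to 14.5 bp for the WT libraries themselves. The median was larger, at 20 to 26 bp, in G244E, K243A and rep217A, with 71.8% to 77.6% of summits within 50 bp, against 82.1% to 83.4% in WT. In Empty it was 28 to 42.5 bp. G244E, K243A, rep217A and Empty were the shallowest groups. Summit distances at the common depth were not computed, so the part of depth in these values was not tested.

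Among the 10 strongest deep regions were those in TIMP2, USP32, CAPN3, EXTL1, ST6GALNAC2, TMEM51, DCLK1 and TMED10. Each of these was strong in every library of all 9 variants and of WT. Of all deep regions, 9.28% were strong in every library of all 9 variants. In Empty, the EXTL1 region was strong in 3 libraries, that in ST6GALNAC2 in 2, and those in TIMP2, CAPN3 and TMEM51 in 1 each. The regions in USP32, DCLK1 and TMED10 were strong in none. Of all deep regions, 18 were strong in every Empty library (0.0770%). The strongest, at chr17:78883040-78884504 in TIMP2, encoding an inhibitor of matrix metalloproteinases, stood 6807 bp from a gene end. Its summit over library background was 2173 ± 59 in G244E, 2276 ± 252 in K243A, 1142 ± 79 in N278D and 929 ± 12 in E260A, against 1375 ± 55 in WT (SD, n = 3 each). Its height in the Empty libraries was 367, 267 and 233, against 1313, 1418 and 1394 in the WT libraries. Its −log10 q in the Empty libraries was 5.66, 3.74 and 2.98, against 1221, 1180 and 1253 in WT. Unlike the heights, these −log10 q values are not scaled to depth, which was lowest in Empty.

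CAPN3, encoding a calpain protease, held a region at chr15:42404279-42405221 that stood at 1935 and 1796 in the rep217A libraries and 451 ± 40 in G244E, against 919 ± 63 in WT (SD, n = 3 each for the last 2). The rep217A libraries were the highest of all.

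Pigmentation genes held 65 deep regions, in 12 of the 15 genes of the list that have a deep interior. The median was 4.66 regions per 100 kb over these 15 genes. Over all genes the median was 0 below 50000 bp of deep interior, 1.61 from 50000 to 100000 bp and 1.80 from 100000 to 200000 bp. It was 1.80 from 200000 to 500000 bp and 1.10 at 500000 bp or more, a length that no gene of the list reached. The genes of the list differ in length, and density was lower in the longest genes. MYO5A, the myosin that moves melanosomes, held 14, RAB38 11, OCA2 8, TRPM1 7, and DCT and RAB27A 6 each. Strong in every library were 4 of 65 in G244E (6.15%, against 12.3% of all deep regions), 12 in K243A (18.5% against 18.3%), 21 in rep217A (32.3% against 29.3%) and 58 in N278D (89.2% against 84.7%), beside 55 in WT. The list was chosen with earlier results of these data known, and these shares carry no test.

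The strongest of them lay in DCT, encoding the melanin enzyme dopachrome tautomerase, at chr13:94479526-94480246, 43075 bp from a gene end. Its height was 347 ± 53 in G244E and 537 ± 88 in K243A, against 607 ± 24 in WT (SD, n = 3 each), and 344 and 319 in rep217A. The G244E and rep217A libraries lay below every WT library, and 1 of 3 K243A libraries lay within the WT range. At chr15:31101540-31103178 in TRPM1, the melanocyte cation channel gene that hosts miR-211, the height was 835 ± 36 in Y253A, 749 ± 17 in Q261A, 646 ± 29 in N278D, 633 ± 16 in E260A and 447 ± 35 in A264C, against 349 ± 28 in WT (SD, n = 3 each). It was 152 ± 16 in K243A and 89.7 ± 5.5 in G244E (SD, n = 3 each). The variants thus lay on both sides of WT, each clear of the WT libraries.

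In OCA2, a melanosomal ion transport gene, the region at chr15:27933376-27933988 stood 165633 bp from a gene end. It had heights of 29.0 and 37.4 in rep217A and 69.8 ± 29 in G244E, against 222 ± 21 in WT (SD, n = 3 each for the last 2). In MLANA, encoding the melanosome protein Melan-A, the region at chr9:5895542-5896506, also inside BRD10, had heights of 580 and 721 in rep217A, against 463, 443 and 383 in WT. Here rep217A was the higher group. In RAB38, a small GTPase for melanosome cargo, the region at chr11:88151756-88152802 had 66.5 ± 28 in G244E and 297 ± 65 in K243A, against 350 ± 44 in WT (SD, n = 3 each). The G244E libraries were below every WT library, and K243A overlapped with WT. In TYR, the rate-limiting melanin enzyme, the strongest deep region at chr11:89235071-89235550 had no listed peak in G244E, against −log10 q of 36.3, 29.8 and 28.9 in WT. Its mean height in WT was 31.2. The −log10 q is not scaled to depth, which was lower in G244E than in WT.

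Lineage transcription factors and receptors held 92 deep regions in 9 of 11 genes with a deep interior, at a median of 7.93 per 100 kb. MITF held 27, SOX5 26, PAX3 11, ZEB2 10 and EDNRB 7. Of the 92, 13 were strong in every G244E library (14.1% against 12.3% of all deep regions), 24 in K243A (26.1% against 18.3%), 34 in rep217A (37.0% against 29.3%) and 79 in N278D (85.9% against 84.7%), beside 82 in WT. In TFAP2A, a neural crest factor, the region at chr6:10404100-10405157, which holds the start window printed last above, had heights of 620 ± 135 in G244E and 481 ± 106 in K243A, against 276 ± 15 in WT (SD, n = 3 each). In PAX3, which itself acts upstream of MITF, the region at chr2:222290496-222291611 had 432 ± 52 in G244E and 494 ± 45 in K243A, against 328 ± 15 in WT (SD, n = 3 each). Every G244E and K243A library was above every WT library at both. Peaks in Empty were also listed at both, with −log10 q of 7.81, 2.92 and 4.01 at PAX3 and 2.87, 2.44 and 2.84 at TFAP2A. The part of such peaks in the variant values was not tested.

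The strongest region in MITF, at chr3:69861411-69861984, had heights of 514 ± 38 in N278D, 363 ± 15 in Y253A and 200 ± 70 in G244E, against 253.1 ± 20 in WT (SD, n = 3 each). All N278D libraries lay above all WT libraries. In EDNRB, the endothelin receptor of melanoblasts, the region at chr13:77969239-77969934 had 105 and 124 in rep217A and 181 ± 43 in G244E, against 322 ± 31 in WT (SD, n = 3 each for the last 2). In KIT, the stem cell factor receptor, the only deep region had no listed peak in G244E, rep217A or Empty, with −log10 q of 29.97, 20.7 and 23.8 in WT. These values are not scaled to depth, which was lower in G244E, rep217A and Empty than in WT.

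**Figure D5:**
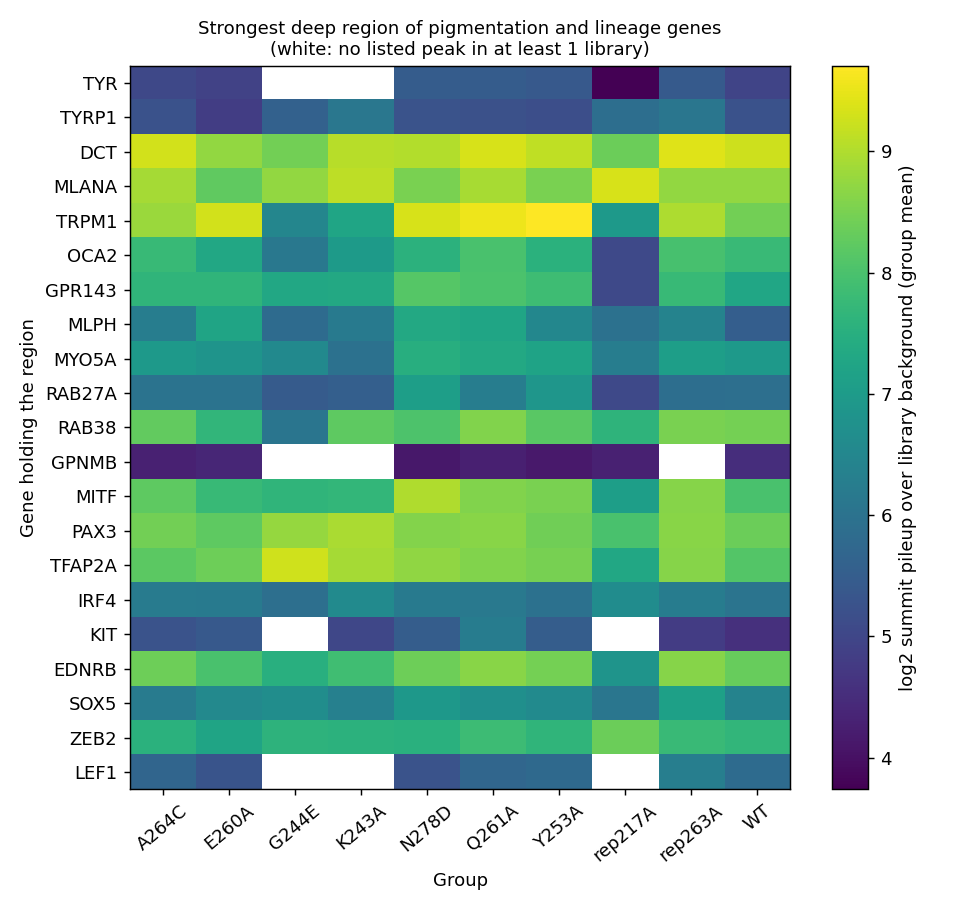
The log2 of summit pileup over library background at the strongest deep region of each pigmentation and lineage gene that holds one, as the mean over the libraries of a group, with white where at least 1 library had no listed peak. Empty is not drawn. The DCT means lie between 332 in rep217A and 687 in rep263A (before the log), while TRPM1 is highest in Y253A (835) and lowest in G244E (89.7).

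Survival, cell cycle and metabolism genes held 69 deep regions at a median of 4.23 per 100 kb, with PPARGC1A at 21, CDK6 at 19 and BCL2 at 12, invasive state genes 44 at 2.26 per 100 kb, and lysosome and autophagy genes 36 at 0.784 per 100 kb. Long genes of other tissues gave medians of 1.24 (lymphoid), 0.898 (hepatic and epithelial) and 0.535 (neuronal and adhesion), and common fragile site genes 1.11. In G244E, 9 of 44 invasive state regions were strong in every library (20.5%), and 4 of 131 fragile site regions (3.05%), against 12.3% of all deep regions. In WT the counts were 39 and 100. Among genes of other tissues the G244E share was 22.2% in hepatic and epithelial genes (4 of 18 regions). It was 10.7% in lymphoid genes and 9.64% in neuronal and adhesion genes. In K243A, 18.2% of invasive state regions were strong in every library, against 18.3% of all deep regions. These shares carry no test. At MET, the hepatocyte growth factor receptor, the region at chr7:116734669-116735241 had heights of 324 ± 23 in Y253A and 41.7 ± 21 in G244E, against 183 ± 1.6 in WT (SD, n = 3 each). At LYST, a regulator of lysosome size, the region at chr1:235872118-235872879 had 25.4 and 28.7 in rep217A and 46.5 ± 24 in G244E, against 273 ± 48 in WT (SD, n = 3 each for the last 2).

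Some strong WT regions had no peak in a given group. HTR2A, a serotonin receptor gene, held the strongest deep region without a listed peak in any Empty library, at chr13:46866088-46866697. It was strong in all variants, with −log10 q of 11.7 to 19.6 in G244E and 16.9 and 28.2 in rep217A, against 635 to 754 in WT. These values are not scaled to depth, which was lower in G244E and rep217A than in WT. EXT1, encoding a heparan sulfate polymerase, held the next, at chr8:117847574-117848250, with heights of 511 and 463 in rep217A and 125 ± 44 in G244E, against 377 ± 27 in WT (SD, n = 3 each for the last 2).

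G244E had 14963 deep regions without a strong peak in any library (64.0%, against 57.8% of all regions) and 3511 without a listed one (15.0% against 13.3%). The strongest of the first kind lay at chr1:183906637-183907416 in RGL1, a Ral exchange factor gene, with −log10 q of 4.19, 2.3 and 3.47 in G244E and 29.3 to 34.6 in K243A, against 519, 449 and 474 in WT. Here too −log10 q is not scaled to depth, which was lower in G244E and K243A than in WT. The strongest of the second kind lay in CDH1, the E-cadherin gene, at chr16:68784213-68784697, and in TENM4. The CDH1 region had heights of 920 and 862 in rep217A, against 264.03 ± 33 in WT (SD, n = 3). A neighbouring region of CDH1 at chr16:68786530-68787209 had 383 ± 72 in G244E, against 459 ± 11 in WT (SD, n = 3 each).

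In rep217A, 12705 deep regions had no strong peak (54.4%, against 49.9% of all) and 4292 no listed one (18.4% against 16.4%), with the strongest in CHMP4B, an ESCRT subunit gene, for no strong peak and in FAR2, a fatty acyl reductase gene, for no listed one. The CHMP4B region at chr20:33846293-33846956 had heights of 25.4 and 20.1 in rep217A and 300 ± 30 in K243A, against 260 ± 20 in WT (SD, n = 3 each for the last 2). PRKCD, the protein kinase C delta gene, held a region at chr3:53167811-53168182 with no listed peak in rep217A and none strong in K243A, against −log10 q of 117 to 150 in WT. These values are not scaled to depth, which was lower in rep217A and K243A than in WT. K243A left 12785 without a strong peak (54.7% against 48.6%) and 2291 without a listed one (9.81% against 8.61%), the strongest without a listed peak in RASAL1 and AP1S2.

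The lists of G244E replicates 1 and 2 were 300000 peaks long with a lowest −log10 p of 2.12 and 2.18, against 2.00031 in most libraries. Peaks below these values are not in the 2 lists, which bears on counts of listed peaks in G244E.

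N278D had 776 deep regions without a strong peak (3.32%, against 3.22% of all), rep263A 3630 (15.5% against 14.8%), E260A 1848 (7.91% against 6.53%), Q261A 1665 (7.13% against 6.6%), Y253A 1251 (5.35% against 4.58%) and A264C 573 (2.45% against 2.23%). Without a listed peak were 60 in A264C (0.257% against 0.262%), 476 in E260A (2.04% against 1.67%), 143 in N278D (0.612% against 0.682%), 247 in Q261A (1.06% against 1.09%), 246 in Y253A (1.05% against 0.909%) and 576 in rep263A (2.47% against 2.5%). The strongest of these in E260A lay in ITGB3 and BLTP3A, in Q261A in SUGCT and LMNA, in Y253A in PRKCA and SUGCT, in rep263A in MITF and DHRS3, and in N278D in MITF and PRKCD. Their −log10 q averaged 17.6 to 54.9 in WT. The SUGCT region at chr7:40549459-40549676 had strong peaks in all A264C, N278D and WT libraries and no listed peak in E260A, K243A, Q261A, Y253A, rep217A or rep263A. The MITF region at chr3:69839779-69839997 had no listed peak in N278D, rep217A or rep263A, with −log10 q of 28.0, 60.2 and 10.8 in WT. These values are not scaled to depth, which was lower in rep217A and rep263A than in WT. In A264C the strongest lay in ALK and UACA, both 150 bp wide. The ALK region had −log10 q of 653, 4.69 and 7.25 in WT and 437 in 1 N278D library, with none listed in the other N278D libraries.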

How the data were processed

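Each CUT&Tag library of UACC-257 cells is 1 deposited peak list. The tools were Bowtie2 2.3.4.3 after bcl2fastq 2.20.0.422, with MACS2, and the build hg38, per the submitters' processing notes. The MACS2 version, the use of a control library and duplicate removal are not given in the sources used here. The authors deposited these values for each peak: the fold (a ratio of summit over local background), its −log10 p, its −log10 q, and a score, which was not used. These are the authors' values and served to rank, filter and overlap peaks.

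Pileup and background were recovered from the deposited fold and −log10 p, and gave whole-number pileups for 100% of peaks in every library. Summit height in the text is the recovered pileup over the relative depth. Each library was thinned 5 times by binomial sampling to relative depth 0.108, keeping summits with −log10 p of at least 8. Thinned peaks keep their full-depth width. The Empty libraries (relative depth at most 0.03) were left out there.

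Genes came from the RefSeq table (GRCh38.p14), whose 19970 protein-coding genes give spans. Strand was taken from the start windows for 15812 of them. Overlaps needed at least 1 bp. Each measure was tested over 31 distinct libraries by permuting group labels (100000 resamples, seed 1), taking the highest absolute standardised difference over the 10 comparisons with WT, two-sided, at a threshold of 0.05. Differences were standardised by the within-group SD pooled over all groups, not by that of the groups compared. With 3 against 3 libraries alone, an exact test could not go below 0.1. The recovery of pileups and the permutation test were tested on simulated data.

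Named regions were the 10 of highest mean WT rank, the strongest in each pigmentation and lineage gene and in each other list, the strongest without a strong or listed peak in a group, and the genes with most regions. Some regions that this rule names are not reported here. The regions, gene lists and tests were chosen with earlier results of these data known. Python 3.11.15, numpy 2.4.6, pandas 2.3.3, scipy 1.17.1 and matplotlib 3.10.9 were used.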

Additional observations from a re-analysis of the deposited data

How the results depend on the processing

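All differences here are a group minus WT in percentage points, with permutation adjusted p where a call changed. For recovery of deep regions, using all listed peaks gave −0.201 for N278D, −0.936 for Y253A and −3.18 for rep263A (permutation p = 0.577). A −log10 q of at least 10 gave 7.15 for A264C (0.0179) and 8.51 for N278D (0.00268). Thinning gave 6.23 for E260A (0.0105), 11.2 for Q261A (2e-05), 10.4 for rep263A (0.0002), −2.73 for G244E (0.546), −1.73 for K243A (0.905), 13.5 for N278D (1e-05) and 9.77 for Y253A (0.00011).

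For deep minus gene-end recovery within quintiles, all listed peaks gave −0.0571 for A264C, −0.149 for Y253A, 1.52 for rep263A (0.652) and −15.0 for Empty (1e-05). A −log10 q of at least 10 gave 3.59 for N278D (0.025), −2.74 for rep217A (0.204) and 0.667 for Empty. Without quintiles the values were 2.53 for N278D (0.0481), 0.948 for rep263A (0.844) and 0.945 for Empty. Thinning gave 1.53 for E260A, 6.09 for N278D (0.00048), 4.77 for Q261A (0.00472), 4.79 for Y253A (0.00462) and −0.987 for rep217A (0.974).

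For the share of strongest peaks, E260A was called with 5000 peaks (2.39, permutation p = 0.037), with 20000 peaks (1.84, 0.00594) and after thinning (2.07, 0.00894). Empty gave −2.43 with 5000 peaks (0.0332), −6.68 ranked by fold (1e-05) and 2.297 at more than 10000 bp from gene ends (0.0677). Most of the Empty peaks ranked in these settings were not strong. Ranked by fold, rep217A gave −3.70 (0.00016) and rep263A 0.987 (0.639).

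Leaving out each replicate number in turn, recovery ranged over −12.7 to −7.05 for rep263A (not called without replicate 1, permutation p = 0.368) and −0.540 to 1.49 for Y253A. The difference within quintiles ranged over −0.125 to 1.503 for A264C, −1.77 to 0.139 for E260A, −1.43 to 0.340 for Empty, −0.425 to 1.501 for Y253A and −5.21 to −3.95 for rep217A (not called without replicate 1, permutation p = 0.0685). The share of strongest peaks ranged over −0.0250 to 0.850 for A264C, 1.36 to 2.73 for E260A (called without replicate 1), −4.53 to −3.50 for K243A, 2.87 to 4.56 for Q261A, 4.03 to 5.33 for Y253A, 2.83 to 3.75 for rep263A and 1.48 to 4.49 for Empty. A rep217A or rep263A arm left with 1 library is assumed to vary like the other groups.

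With the replicate number as a block, E260A passed for the share of strongest peaks (2.26, permutation p = 0.0489), and the other 29 calls kept their side of the threshold. The numbers were not taken as pairing, since 6 of 84 same-numbered pairs had a correlation of deviations over 0.1, with a median of 0.00707. No thinned value was run for Empty. The cause of each change was not tested, except that thinning lowers depth by construction. G244E and K243A kept their direction and calls for the difference within quintiles under every setting run.

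Depth limits the comparisons with G244E: the relative depth was 0.108 to 0.151 in G244E and 1.082 to 1.201 in WT, and only listed peaks were thinned.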
